A study of Mus musculus with 6 samples.

Results

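TGF-beta and BMP family signalling in C2C12 myotubes given palmitate was followed through 10 genes: the ligands Tgfb1, Tgfb2, Tgfb3, Inhba, Bmp4 and Mstn, the receptor Tgfbr2, and the Smad proteins Smad3, Smad6 and Smad7. The genes were chosen by name, with earlier results of these data known. A probe set was taken as a member where the platform annotation paired it with that 1 symbol. This gave 14 probe sets of 9 genes, of 12393 genes with a probe set of their own, and Mstn was not analysed here because no probe set was paired with it in the annotation used. C2C12 is a mouse muscle cell line: its myoblasts stop dividing in low serum and join into multinucleated myotubes. The palmitate group was 3 arrays of C2C12 myotubes kept for 5 days in 2% horse serum and then given 500 µM palmitate, a saturated fatty acid bound to fatty acid-free bovine serum albumin (BSA), for 16 h. The BSA group was 3 arrays of myotubes differentiated the same way and given 1% BSA for 16 h. The treatment label of the palmitate group does not state its BSA concentration. All samples came from 1 cell line, and the labels number the replicates without saying that they were separate cultures, so the p-values rest on array-to-array spread that could be technical alone. Each value is the signal of 1 probe set on an Affymetrix mouse 430A 2.0 array, on a linear scale.

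Ligands of this family are dimers that bring together type II and type I receptor kinases at the cell surface. TGF-beta and activin receptors phosphorylate Smad2 and Smad3, BMP receptors phosphorylate Smad1, Smad5 and Smad9, and both groups enter the nucleus with Smad4, while Smad6 and Smad7 inhibit the pathway. In skeletal muscle, myostatin and activins limit muscle mass, TGF-beta restrains myoblast differentiation and drives matrix synthesis, and BMPs can turn C2C12 cells away from myogenesis towards an osteoblast programme.

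Of the 14 member probe sets, 9 (7 genes) had a mean log2 signal above the filter, which equals a signal of 267.1, and were tested, and 5 lay under it. Palmitate myotubes had more Inhba and Smad7 transcript and less Bmp4 and Tgfbr2 transcript than BSA myotubes, so 2 member probe sets were higher and 2 lower past a limma adjusted p of 0.05, and 5 did not pass. Among all features, 19.2% of the 13575 tested probe sets passed (8.63% higher and 10.6% lower), and by gene 20.2% of 7931 passed, against 4 of the 7 tested member genes. The members were chosen with earlier results of these data known, so these shares describe them and test nothing. On 5 of the 9 tested member probe sets the palmitate arrays lay wholly on 1 side of the BSA arrays (3 higher, 2 lower), as they did on 37.2% of all tested probe sets (17.6% higher, 19.6% lower). The plot of member signals by array shows the 6 values of each gene's brightest probe set.

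**Figure D1:**
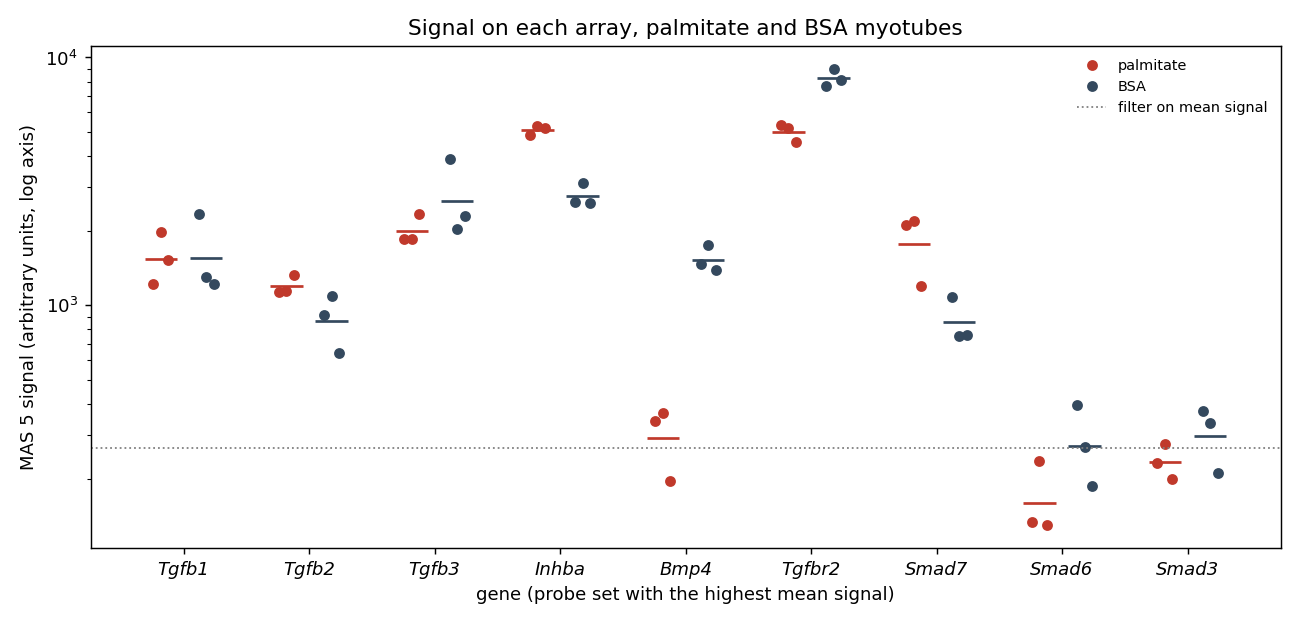
MAS 5 signal (arbitrary units, log axis) of the brightest probe set of each of 9 member genes on the 3 palmitate arrays (red, left of each pair) and the 3 BSA arrays (dark, right), 1 point per array, with the mean of the log2 signals as a bar and the filter dotted. The groups stand apart for Inhba, Smad7 and Tgfb2 (palmitate higher) and for Bmp4 and the brightest Tgfbr2 probe set (palmitate lower). Tgfb2 did not pass, and the Tgfb1 points overlap.

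Markers of the labelled cell type were all measured above the filter. The 16 myotube markers had summed signals of 252732 to 267723 on the palmitate arrays and 227812 to 345509 on the BSA arrays, and 1 of them, Atp2a1, the calcium pump of fast fibres, fell. Of 7 fibroblast markers, Thy1 and Lum lay under the filter and the other 5 (Pdgfra, Pdgfrb, Col1a1, Dcn and S100a4) fell, with sums of 19031 to 20017 with palmitate and 53730.1 to 64662 with BSA. The sums of the groups were far apart, and most of each sum was S100a4 (mean 14865 with palmitate and 39562 with BSA). Of the myoblast markers 6 were tested and 2, Myod1 and Mki67, fell, with sums of 17291 to 18224 with palmitate and 24550.5 to 26809 with BSA. Their part in the falls of Bmp4, Tgfbr2 and the matrix-binding regulators was not tested, and in these bulk samples fewer cells of a type and less RNA per cell cannot be told apart. The 2 tested osteoblast markers, the 1 tested adipocyte marker and the 3 tested macrophage markers did not pass, and 0 of 5 endothelial markers exceeded the filter.

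Correlations between arrays were 0.943 to 0.959 within a group and 0.883 to 0.910 between groups. The mean log2 signal of 9 hybridisation control probe sets was 13.15 ± 0.14 with palmitate and 12.82 ± 0.14 with BSA (SD, n = 3 each), higher on every palmitate array (exact permutation p = 0.1, two-sided, the smallest possible). RNA integrity, read as 3′ over 5′ Gapdh control signal (log2), was 0.07 ± 0.24 with palmitate and 0.27 ± 0.07 with BSA (exact permutation p = 0.2). Scaling to the hybridisation controls moved the median log2 fold change of all tested probe sets to -0.34. It changed the member calls to 1 higher (Inhba) and 3 lower (Bmp4, Tgfbr2 and Tgfb3).

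Among the ligands, Inhba encodes the beta A subunit that pairs to form activin A. Its probe set read 4857, 5308 and 5193 on the palmitate arrays, against 2604.5, 3126 and 2590.3 on the BSA arrays. All palmitate arrays lay above all BSA arrays, with little spread in either group. The means were 5119 ± 234 with palmitate and 2774 ± 306 with BSA (SD, n = 3 each), a 1.85-fold difference (log2 0.89 ± 0.15 SE, 95% interval 0.56 to 1.22, limma adjusted p = 0.00170). The call held under all 15 alternative settings, with log2 values of 0.56 to 0.98 and a highest adjusted p of 0.0403.

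Bmp4 encodes a BMP ligand that directs osteogenic and dorsoventral fates. It read 343, 369 and 195 on the palmitate arrays and 1469, 1756.5 and 1388 on the BSA arrays. The highest palmitate array was far below the lowest BSA array, and palmitate replicate 3 was the lowest of all. The means were 302.5 ± 93.7 with palmitate and 1538 ± 194 with BSA (SD, n = 3 each). In the fit of log2 signal Bmp4 was 5.25-fold lower with palmitate (log2 -2.39 ± 0.29 SE, 95% interval -3.02 to -1.76, limma adjusted p = 0.000173). In order of log2 fold change this was fall number 33 among the 13575 tested probe sets. It passed under all 15 alternatives, at log2 values between -2.73 and -2.05 and adjusted p up to 0.00282.

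The 3 TGF-beta isoform genes did not pass. Tgfb1, the isoform most associated with fibrosis, read 1219, 1977 and 1528 with palmitate against 2332, 1305 and 1219 with BSA, and the groups overlapped. Its log2 fold change was -0.0035 ± 0.27 SE (95% interval -0.59 to 0.58, limma adjusted p = 0.996), an interval that spans about the same distance in both directions. BSA replicate 1 was its highest array, and without that array the value was 0.29.

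Tgfb2, an isoform with developmental roles in heart and skeleton, had 3 tested probe sets. The brightest read 1131.5, 1144 and 1322 with palmitate and 917.5, 1093 and 643 with BSA. Its groups did not overlap, and the difference did not pass (log2 0.47 ± 0.23 SE, 95% interval -0.04 to 0.98, limma adjusted p = 0.190). The second read 1018, 805 and 763 with palmitate and 644, 595 and 1024.5 with BSA (log2 0.22 ± 0.26 SE, adjusted p = 0.603), and the third 912, 684.5 and 822 with palmitate and 615, 433 and 916 with BSA (log2 0.36 ± 0.30 SE, adjusted p = 0.442). The probe sets disagreed on 1 array, since BSA replicate 3 was the lowest array on the first and the highest on the other 2.

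Tgfb3, an isoform known for palate fusion, read 1860.1, 1849 and 2339.7 with palmitate and 3910.5, 2036 and 2303 with BSA. BSA replicate 1 stood above the rest and the other arrays overlapped. The log2 fold change was -0.40 ± 0.24 SE (95% interval -0.91 to 0.12, limma adjusted p = 0.273), and it was -0.11 without BSA replicate 1. Scaling the arrays to their hybridisation controls gave -0.73 with an adjusted p of 0.0417, past the threshold.

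Tgfbr2 encodes the type II receptor that binds TGF-beta. Its brightest probe set read 5324, 5184 and 4542 on the palmitate arrays, against 7656, 9005 and 8099 on the BSA arrays. The groups were clearly separate, with means of 5017 ± 417 with palmitate and 8254 ± 687 with BSA (SD, n = 3 each). The signal was 1.65-fold lower with palmitate (log2 -0.72 ± 0.14 SE, 95% interval -1.03 to -0.41, limma adjusted p = 0.00431).

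The other 2 Tgfbr2 probe sets lay under the filter. One read 207, 136 and 137 with palmitate and 100.4, 99.5 and 273 with BSA (log2 0.17 ± 0.69 SE in the fit without the filter, adjusted p = 0.925), and the other 68.4, 308 and 42.9 with palmitate and 240.2, 133 and 222 with BSA (log2 -0.99 ± 0.83 SE, adjusted p = 0.549). Neither separated the groups. With the gene's 3 probe sets averaged the call ended (log2 -0.51, adjusted p = 0.290), while it held under the other 14 alternatives.

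Smad7 encodes the inhibitory Smad that recruits ubiquitin ligases to the type I receptor and is itself induced by TGF-beta. It read 2103, 2191 and 1198.5 on the palmitate arrays, against 1084, 754 and 761 on the BSA arrays. The groups did not overlap, but palmitate replicate 3 lay close to BSA replicate 1. The means were 1831 ± 549 with palmitate and 866 ± 188 with BSA (SD, n = 3 each). In the fit of log2 signal Smad7 was 2.07-fold higher with palmitate (log2 1.05 ± 0.26 SE, 95% interval 0.48 to 1.62, limma adjusted p = 0.0153).

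The direction of Smad7 held under all 15 alternatives and the call under 10. It was lost without palmitate replicate 1 (log2 0.93, adjusted p = 0.0581), without palmitate replicate 2 (0.90, adjusted p = 0.0508), without BSA replicate 2 (0.96, adjusted p = 0.0651), without BSA replicate 3 (0.97, adjusted p = 0.0503) and with scaling to the hybridisation controls (0.72, adjusted p = 0.0833).

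The other 2 Smad members lay under the filter, and neither passed in the fit without it, where the intervals were wide. For Smad3, the transducer of TGF-beta and activin signals, the brighter probe set read 231, 277 and 199.9 with palmitate and 375, 334 and 211.5 with BSA (log2 -0.35 ± 0.48 SE in the fit without the filter, 95% interval -1.41 to 0.71, adjusted p = 0.741). The dimmer Smad3 probe set ranged over 20.1 to 236 with palmitate and 38.4 to 178 with BSA. Smad6, the inhibitory Smad that acts mainly on BMP signals, read 134, 235.5 and 129.6 with palmitate and 395, 268 and 187 with BSA (log2 -0.76 ± 0.58 SE, 95% interval -2.02 to 0.50, adjusted p = 0.501). Without the filter 9.9% of 22626 probe sets passed.

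**Figure D2:**
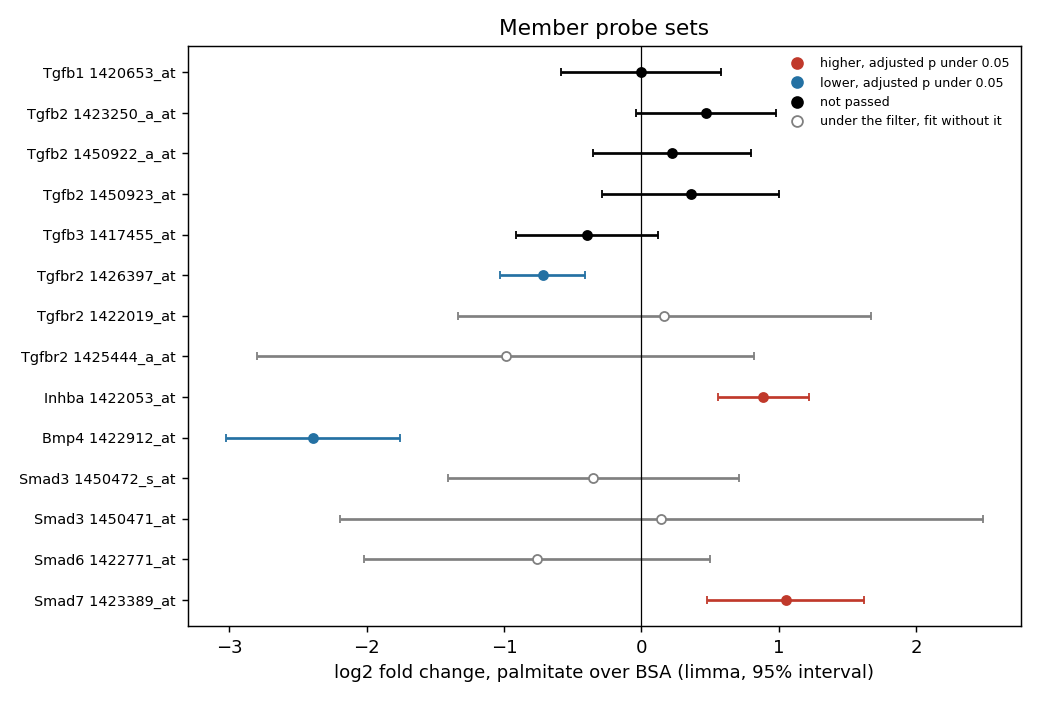
Log2 fold change, palmitate over BSA, with 95% interval from limma for the 14 member probe sets, open symbols for the 5 under the filter (fit without it). The intervals of Inhba and Smad7 lie above 0, those of Bmp4 and the brightest Tgfbr2 probe set lie below 0, and the other 10 cross it.

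The promoter windows of the passing members are shown because the sequence motifs bound by Smads and AP-1 can be looked up in them directly. Windows run from 250 bases before to 50 after the RefSeq gene start (assembly GRCm38.p6), and 8 of the 10 listed genes matched, leaving out Tgfb3 and Smad7. The windows lie at chr9:116175314-116175613 on the minus strand for Tgfbr2, chr13:16011601-16011900 on the plus strand for Inhba and chr14:46390620-46390919 on the minus strand for Bmp4. Each is written 5′ to 3′ on the gene's strand, with CAGAC, the Smad3 and Smad4 box, in capitals.
Inhba: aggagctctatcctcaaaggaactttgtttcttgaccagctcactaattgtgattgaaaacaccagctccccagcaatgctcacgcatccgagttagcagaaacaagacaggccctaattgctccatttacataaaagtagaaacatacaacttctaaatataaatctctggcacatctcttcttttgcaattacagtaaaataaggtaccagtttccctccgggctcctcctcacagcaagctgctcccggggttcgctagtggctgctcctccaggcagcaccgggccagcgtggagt
Bmp4: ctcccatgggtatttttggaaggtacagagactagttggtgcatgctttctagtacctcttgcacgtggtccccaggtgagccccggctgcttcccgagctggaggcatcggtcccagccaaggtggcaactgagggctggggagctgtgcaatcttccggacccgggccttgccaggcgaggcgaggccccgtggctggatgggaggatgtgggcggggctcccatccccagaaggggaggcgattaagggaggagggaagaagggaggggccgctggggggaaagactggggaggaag
Tgfbr2: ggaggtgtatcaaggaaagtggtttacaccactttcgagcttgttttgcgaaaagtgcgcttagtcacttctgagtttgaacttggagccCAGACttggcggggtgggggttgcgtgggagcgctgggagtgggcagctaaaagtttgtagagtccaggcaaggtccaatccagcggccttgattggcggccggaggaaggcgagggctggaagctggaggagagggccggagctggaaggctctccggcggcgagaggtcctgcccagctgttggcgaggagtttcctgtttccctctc

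The window of Tgfbr2 held 1 CAGAC, 160 bases before the start, and those of Inhba and Bmp4 held none. Both strands were searched for CAGAC, for GGCGCC (a GC-rich Smad motif) and for TGANTCA (the AP-1 motif). TGANTCA can share its last letters with CAGAC, and no member window held such an overlap. CAGAC was in 3 of the 8 member windows (Tgfb2, Mstn and Tgfbr2) and in 49.6% of all 32851 windows. GGCGCC was in 0 of 8 and in 11.9% of all windows, and TGANTCA was in 1 of 8 (Mstn) and in 7.81% of all. The GC share was 47.7% for the Inhba window, 64% for Bmp4 and 59% for Tgfbr2, beside a median of 52.7% over all windows. A match is a description of letters and says nothing of binding.

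The wider pathway was described with 129 genes listed by role, of which 114 had a probe set and 83 were tested, each by its brightest probe set. Among the 76 tested genes that were not members, 7 passed higher and 24 lower (40.8%), where 7.92% of all tested genes passed higher and 12.3% lower. Their median log2 fold change was -0.32, against -0.05 for all tested genes. The lists were chosen with earlier results of these data known, so these shares and medians are a description and no test of the pathway. Some lists share genes, and the split between directions depended on scaling: with the arrays scaled to their hybridisation controls, 2 genes of the whole list were higher and 42 lower, against 9 and 26 as deposited.

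The other ligands and receptors mostly did not pass. Of the 4 tested ligands outside the members, Inhbb, the beta B subunit of activin B, fell. It read 2773, 2260.1 and 2439 with palmitate and 5507, 6926 and 7199.6 with BSA (log2 -1.39 ± 0.16 SE, limma adjusted p = 0.000139), and its second probe set did not pass (-1.34 ± 0.65 SE, adjusted p = 0.173). Gdf5, Nodal and Inha had log2 values of -0.43, 0.35 and 0.16. Of the 7 other receptors tested 0 passed: the BMP type I receptor Bmpr1a was at -0.46 (adjusted p = 0.0941), the type I receptor Acvr1 at -0.42 (0.131) and Tgfbr1, the kinase partner of Tgfbr2, at 0.04 (0.918). The dimmer tested Bmpr1a probe sets were at -0.05, -0.09, -0.02 and -0.43, and none passed. The co-receptor Eng and the type II receptors Bmpr2 and Acvr2a had log2 values of 0.26, -0.26 and -0.08. A second Acvr2a probe set was at 0.64 (adjusted p = 0.121), opposite in sign, with all palmitate arrays above all BSA arrays. Of the 4 other Smads tested 0 passed, with log2 values of 0.25 for Smad1, 0.01 for Smad2, -0.22 for Smad4 and -0.30 for Smad5. Another probe set of Smad5 was at 0.91 (adjusted p = 0.0709), opposite in sign.

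Extracellular regulators store, activate or trap the ligands, and 10 of the 19 tested fell with palmitate while 0 passed higher (median log2 -0.73). Ltbp2, of the latent TGF-beta binding protein family, read 2042, 2013 and 2500.2 with palmitate against 5503, 5315 and 5446.5 with BSA (log2 -1.32 ± 0.15 SE, limma adjusted p = 0.000137). Fstl1, a secreted follistatin-like glycoprotein, had a log2 fold change of -1.16, Thbs1, an activator of latent TGF-beta, of -1.05, and the ligand-binding proteoglycans Dcn and Bgn of -1.27 and -0.76 (limma adjusted p = 9.45e-05, 0.000504, 0.000616 and 0.000758). Bmp1, Htra1, Ltbp3, Twsg1 and Itgav were the other 5. The brightest Bmp1 probe set was at -1.36 (limma adjusted p = 0.00493), while a dimmer one was at -0.43 (adjusted p = 0.569) and did not pass. All 10 calls held with the hybridisation control scaling. That scaling lowered every log2 fold change by 0.33, so keeping calls in the lower direction is no support for them. Dcn is also among the fibroblast markers, whose 5 tested genes fell too. The BMP antagonist Grem1 read 5981, 4078 and 6329 with palmitate and 2192, 2717 and 4844 with BSA, overlapping groups, and did not pass (log2 0.81 ± 0.27 SE, adjusted p = 0.0540). It passed in 5 of 15 alternatives, among them without BSA replicate 3 (log2 1.14, adjusted p = 0.00602) and without palmitate replicate 2 (1.00, adjusted p = 0.0286). The activin trap Fst had a log2 value of -0.49 ± 0.22 SE (adjusted p = 0.150), and passed without palmitate replicate 2 (-0.71, adjusted p = 0.0370).

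Of the 15 tested intracellular and membrane regulators, 4 passed higher and 0 lower, beside a list median of 0.08. These were Tgif1, a corepressor that binds Smad2 (log2 0.84 ± 0.16 SE, limma adjusted p = 0.00308), the deubiquitinase Usp15 (0.66 ± 0.17, adjusted p = 0.0159), the ubiquitin ligase Trim33 (0.61 ± 0.17, adjusted p = 0.0270) and the ubiquitin ligase Nedd4l (0.95 ± 0.28, adjusted p = 0.0311). On each of them all palmitate arrays lay above all BSA arrays, as they did on 17.6% of all tested probe sets. These 4 had already been picked by their adjusted p, so the separation adds no support. With the hybridisation control scaling 0 of these 4 passed. Strap, a receptor-associated inhibitor that works with Smad7, was at 0.35 ± 0.14 SE (adjusted p = 0.0983). Pmepa1, a TGF-beta-induced membrane inhibitor, was at -0.39 ± 0.15 SE (adjusted p = 0.100).

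Known TGF-beta responsive genes changed in both directions. Of the 24 tested outside the members, 12 fell and 3 passed higher, with a median log2 of -0.40. The largest falls in this list were of collagen genes, and Col1a1 is also a fibroblast marker. Col1a1, a fibrillar collagen chain, read 2825, 2489 and 2033 with palmitate against 13799, 13405 and 9450.1 with BSA (log2 -2.31 ± 0.19 SE, limma adjusted p = 1.05e-05), and the log2 fold changes of Col6a1, Col3a1 and Col1a2 were -2.56, -1.89 and -1.63, each with a limma adjusted p at or under 8.90e-06. Postn, a matricellular protein, read 7566, 5635.5 and 5672 with palmitate against 14896.5, 16877 and 14554 with BSA (log2 -1.31 ± 0.15 SE, adjusted p = 0.000129). The genes that passed higher were the matricellular Ccn1 (log2 1.14 ± 0.16 SE, adjusted p = 0.000427) and the transcription factors Bhlhe40 (0.81 ± 0.14, adjusted p = 0.00215) and Junb (0.81 ± 0.20, adjusted p = 0.0140). Ccn2, a widely used TGF-beta target, was at -0.03 ± 0.17 SE (95% interval -0.41 to 0.35, adjusted p = 0.936).

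Of the 6 tested BMP responsive genes outside the members, 2 fell. Id3, an inhibitor of bHLH factors induced by BMPs, read 1185, 1910.4 and 1148 with palmitate and 2726, 2046 and 2585 with BSA (log2 -0.82 ± 0.22 SE, limma adjusted p = 0.0234), and Id2, of the same family, was at -0.79 ± 0.25 SE (adjusted p = 0.0408). Another probe set of Id2 was at 0.35 (adjusted p = 0.769), opposite in sign. Both calls were lost in several alternatives, since Id3 passed in 10 of 15 and Id2 in 5 of 15. Heyl, a bHLH repressor, had the lowest log2 value of the tested genes of the list. It read 318, 146 and 235 with palmitate and 593, 389 and 493 with BSA, groups that did not overlap, and did not pass (log2 -1.13 ± 0.41 SE, adjusted p = 0.0766). It passed in 2 of the 14 alternatives that gave it a value, with hybridisation control scaling (-1.46, adjusted p = 0.0243) and without the variance trend (adjusted p = 0.0461). The dimmer Heyl probe sets lay under the filter, at log2 -0.53 and 0.54 in the fit without it. The transcription factors Msx1 and Gata2 had log2 values of -0.49 (adjusted p = 0.153) and 0.09 (0.825). A dimmer Gata2 probe set was at 1.04 (adjusted p = 0.0511), with all palmitate arrays above all BSA arrays, and did not pass. Id1, the most used BMP target of the family, overlapped between the groups (log2 -0.03 ± 0.26 SE, 95% interval -0.60 to 0.54, adjusted p = 0.954).

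**Figure D3:**
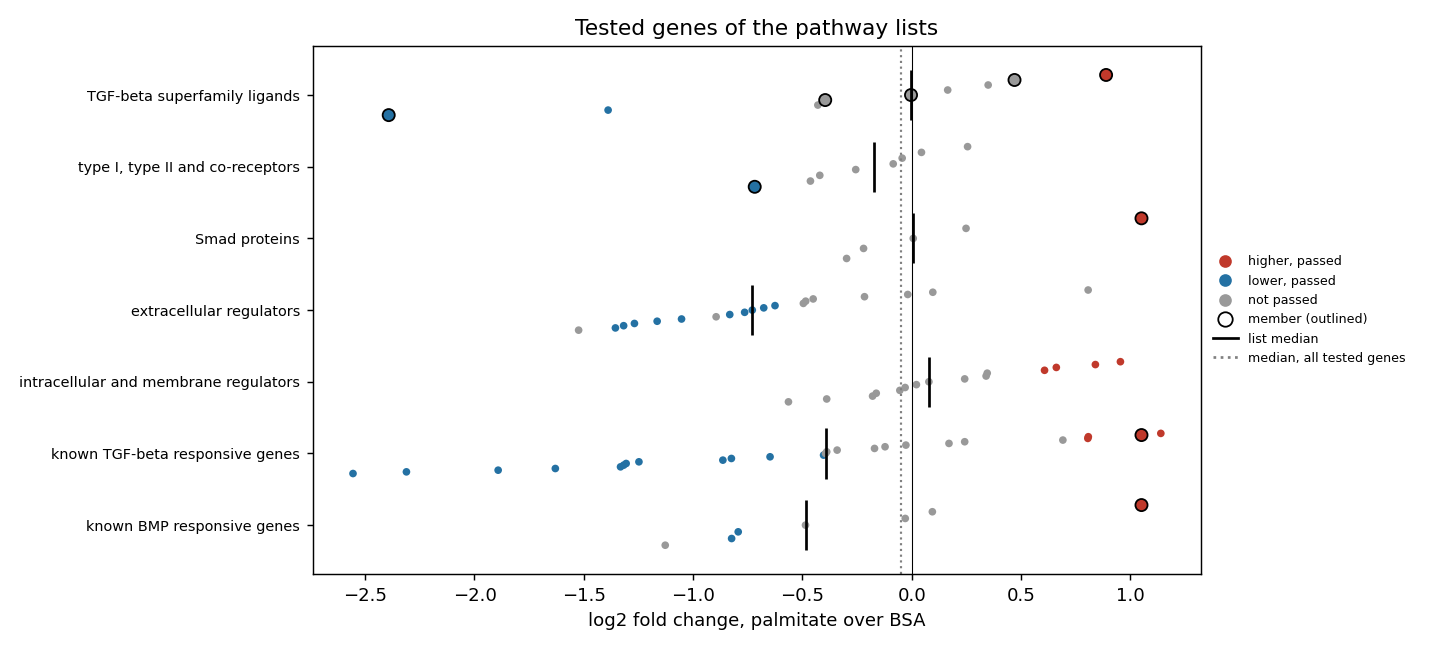
Log2 fold change, palmitate over BSA, of every tested pathway gene by role, 1 point per gene, with members outlined, list medians as bars and the median of all tested genes dotted. Extracellular regulators spread to the left (median -0.73) with 10 passing lower, and 4 intracellular regulators pass higher; Smad7 appears in 3 lists.

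The plot of member values under each setting shows that Inhba, Bmp4, Tgfbr2 and Smad7 kept their direction under all 15.

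**Figure D4:**
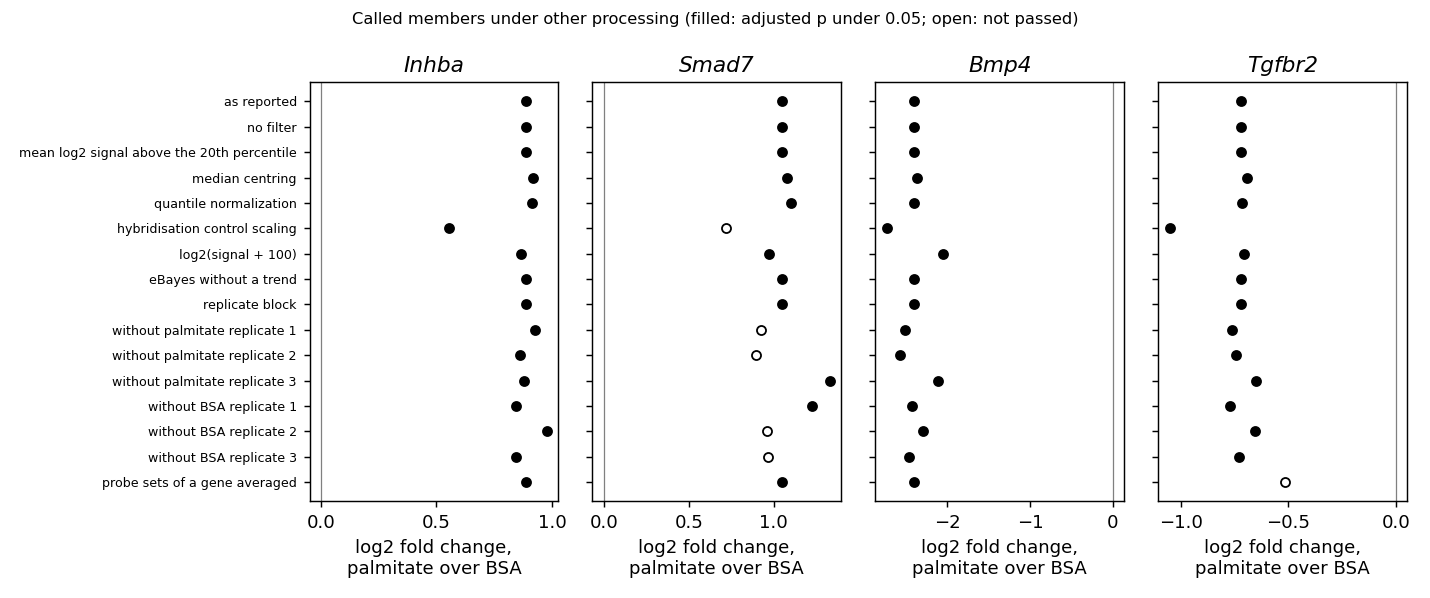
Log2 fold change, palmitate over BSA, of the 4 members that passed (1 panel each) under the reported setting and each alternative (rows), with filled symbols where the limma adjusted p is under 0.05. Inhba and Bmp4 are filled in every row, Tgfbr2 in all but the average of its probe sets, and Smad7 is open in 5 rows.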

How the data were processed

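Transcripts were measured in 3 palmitate and 3 BSA samples of C2C12 myotubes, 1 array each. Each probe set has 1 deposited signal intensity per array, unlogged, which the authors made with MAS5 per the submitters' processing notes. Its settings are not given in the sources used here. Trimmed means (2% off each end) were nearly equal on the 6 arrays (1499.12 to 1499.81), so a shift of most transcripts in 1 direction would be hidden. No detection call or scan date was used, so background and batches were not examined.

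Of 22626 probe sets that were not controls, those with a mean log2 signal above the 40th percentile (a signal of 267.1) were kept, 13575 in all. Log2 signal with no offset was compared between groups with limma 3.58.1 in R 4.3.3 (lmFit, then trended eBayes). P-values are two-sided and Benjamini-Hochberg adjusted across the 13575. Members under the filter came from a fit of all 22626. List genes were counted once, by the brightest probe set on average, and the precision is limited by 3 arrays per group. Single values of the arrays were compared by exact permutation tests. The fit was tested on simulated data drawn independently from its own variance model, which cannot show how well that model suits these arrays.

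Symbols came from the platform annotation, checked against the RefSeq table of GRCm38.p6, which changed 0 symbols. Members and lists were chosen with earlier results of these data known. All members were named, with the 5 non-members of smallest p in each list and every gene of a count of 5 or fewer. Fst, Grem1, Ccn2, Id1, Tgfbr1 and Pmepa1 were named after their values were seen. The replicate numbers of the labels were checked for pairing. Same-numbered arrays had deviations correlating at -0.23, -0.13 and 0.01, so the numbers were not taken to pair the samples. Alternatives covered filter, scaling, offset, variance trend, replicate block, probe set averaging and each array left out.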

Additional observations from a re-analysis of the deposited data

How the results depend on the processing

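For 56 named probe sets, 764 log2 fold changes were recomputed under alternatives: 672 kept direction and side of the threshold, 46 lost the call, 15 gained it and 31 changed sign. None of the changes of sign was of a member past the threshold. The count of tested probe sets past the threshold was 2609 as reported and between 1579 (without BSA replicate 2) and 2315 with 1 array left out. Member probe sets past it numbered 3 to 4 and pathway genes 25 to 35 in those fits, against 4 and 35 as reported. The replicate block, with numbers that share only a label, gave 1973 probe sets, the same 4 member calls and 32 pathway genes, and ended the calls of Id2 (adjusted p = 0.0717) and Trim33 (0.0685), while Grem1 passed (0.0267). Hybridisation control scaling gave 404 higher and 3169 lower probe sets, against 1172 and 1437. The cause was not tested.

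Log2 values of genes under the threshold that changed sign were as follows. Tgfb1 was 0.0233 with median centring, 0.0366 with quantile normalization and -0.18 to 0.29 with 1 array left out. Id1 was 0.0167 with quantile normalization. Hybridisation control scaling gave -0.11 for the second Tgfb2 probe set, -0.24 for Gata2, -0.0854 for Smad1, -0.33 for Smad2, -0.17 for Inha, -0.0783 for Eng and -0.29 for Tgfbr1. Averaging the probe sets of a gene gave 0.27 for Msx1, 0.31 for Smad5 and 0.28 for Acvr2a. With 1 array left out the ranges were -0.0453 to 0.31 for Gata2, -0.11 to 0.17 for Smad2, -0.12 to 0.45 for Inha, -0.66 to 0.37 for Bmpr2, -0.27 to 0.0724 for Acvr2a, -0.16 to 0.13 for Ccn2, -0.31 to 0.26 for Id1 and -0.19 to 0.22 for Tgfbr1. Calls that ended in some alternatives were Nedd4l and Trim33 (held in 8 of 15), Usp15 (10), Junb (11), and Tgif1 and Bhlhe40 with hybridisation control scaling (adjusted p = 0.0564 and 0.0552). The same scaling brought Tgfb3, Bmpr1a, Acvr1, Smad4, Pmepa1, Fst, Heyl and Msx1 past the threshold as lower (adjusted p = 0.0417, 0.00966, 0.0200, 0.0374, 0.0138, 0.0202, 0.0243 and 0.0279). Grem1 also passed as higher with median centring (adjusted p = 0.0465) and with the offset of 100 (0.0486). Dim members (Smad3, Smad6 and 2 Tgfbr2 probe sets) had SEs of 0.48 or more.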

Other observations

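The activin subunit genes Inhba and Inhbb differed in opposite directions between the groups. The log2 signal of Inhba minus that of Inhbb was 0.81, 1.23 and 1.09 on the palmitate arrays, against -1.08, -1.15 and -1.48 on the BSA arrays. The means were 1.04 ± 0.22 with palmitate and -1.23 ± 0.21 with BSA (SD, n = 3 each), a difference of 2.28 (exact permutation p = 0.1, two-sided, the smallest that 3 arrays against 3 allow). All palmitate arrays were higher for Inhba and lower for Inhbb, so that p-value was fixed in advance and adds no support. A difference within an array does not depend on its scaling, shows unequal change of the pair, and does not compare the levels of the genes. This pair was chosen after its values were seen, with 2 others. The difference of Smad7 minus Smad1 was 0.80 higher with palmitate (exact permutation p = 0.1), and that of Tgfbr2 minus Tgfbr1 differed by -0.76, lower with palmitate (exact permutation p = 0.2).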
